A study of Mus musculus with 4 samples.

Results

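The centromeric ends of the mouse autosomes were taken as all listed sites on chromosomes 1 to 19 that start from 3 Mb up to 5 Mb of the mm9 build, leaving out the first 40 kb of chromosome 9. This gave 19 regions of 2 Mb with 9525 site entries in 4 libraries, of 472220 entries in the whole series. The stretch from 5 Mb up to 15 Mb of the same chromosomes, called the interior here, held 28870 entries. No library listed an autosomal site before 3 Mb, and the earliest listed positions were bases 3000032 to 3000458, depending on the library.

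The data are methylation-assisted bisulfite sequencing (MAB-Seq) of genomic DNA from the mouse embryonic stem cell line E14. The groups were cells with an shRNA against Tdg (1 reduced-representation library), cells with a control shRNA (1 reduced-representation library) and wild-type cells (2 whole-genome libraries). Reduced-representation DNA was cut with MspI, so that mainly fragments between its sites were read. The extent of the Tdg depletion was not analysed here, and the labels do not say whether the wild-type libraries came from separate cultures. In MAB-Seq a CpG methyltransferase protects unmodified cytosines before bisulfite treatment, and a cytosine that is still converted carried 5-formylcytosine (5fC) or 5-carboxylcytosine (5caC), or was missed by the methyltransferase. A site's level is its percentage of converted reads after the authors' background correction.

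TET enzymes oxidise 5-methylcytosine stepwise to 5fC and 5caC, and TDG, a DNA glycosylase, excises both bases. Mouse autosomes carry their centromere very near to 1 end, where arrays of minor and major satellite DNA lie. The mm9 build represents this part by a gap, so that the first assembled bases are those closest to the satellite arrays, and such border sequence often holds copies of sequences found elsewhere.

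The centromeric ends held 6610 sites in the first wild-type library, which listed the plus strand only, and 2427 in the second, which listed both strands. The Tdg shRNA library had 267 and the control shRNA library 221, on strands that their lists do not tell apart. These were 1.99% and 2.05% of the wild-type lists, 2.98% of the Tdg shRNA list and 1.71% of the control shRNA list. All sites are the authors' own calls. Read depth is known for the second wild-type library alone, where reads could be recovered from the deposited p-values at 1825 of the 2427 sites of the ends.

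Sequence was deposited as the 5 bases around each CpG of the first wild-type library. Where listed CpGs lay 4 bases apart or closer, these contexts overlap and join into longer stretches of the mm9 plus strand. The first 3 stretches below are the longest of them, and the other 2 show the window with the most sites found in both wild-type libraries and a stretch listed on the minus strand alone by the second. They run 5′ to 3′, and capitals mark the listed CpGs.
chr7:4459712-4459768: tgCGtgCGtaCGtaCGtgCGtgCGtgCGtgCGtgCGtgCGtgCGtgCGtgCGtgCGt
chr16:4471831-4471857: tgCGCGCGCGCGCGCGCGCGCGctCGa
chr8:4325013-4325038: ggCGaCGgCGaCGgCGaCGgCGaCGg
chr12:3357570-3357588: tgCGCGCGCGCGCGCGCGt
chr7:4647882-4647902: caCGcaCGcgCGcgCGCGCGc

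The TG-rich stretch on chromosome 7 (4459712 to 4459768) held 14 listed CpGs with levels from 43.2% to 89.8% and a median of 67.0% in the first wild-type library. The second wild-type library listed 9 sites there, all 9 on the plus strand. The other stretch of the same chromosome (4647882 to 4647902) is mainly CG, with CA near its start. All its 6 CpGs were listed at 0 in the first library, and the second listed 5 sites, 0 of them on the plus strand. The 2 stretches thus differed in the strand on which the second library listed sites. The CG repeat on chromosome 12 (3357570 to 3357588) had 8 CpGs at a median of 69.2%, and all 8 were listed on the plus strand in the second library with p-values at or below 1e-07. The CG repeat on chromosome 16 (4471831 to 4471857) had 11 CpGs at a median of 23.5%, and the second library listed 0 sites there. The stretch on chromosome 8 (4325013 to 4325038), which is no CG, TG or CA repeat, had 8 CpGs at a median of 0, with levels up to 100%, and again 0 sites in the second library. Of 16 such stretches of 15 bases or more in the ends outside chromosome 18, 1 reached 30 bases. Of the sites of the ends, 7.94% (95% interval 7.30% to 8.62%) lay within 4 bases of another, against 7.88% (7.52% to 8.25%) in the interior and 6.92% (6.84% to 7.01%) over all of chromosomes 1 to 19.

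Listed sites were denser in the centromeric ends than in the interior in all 4 libraries. The first wild-type library had 174.1 sites per Mb in the ends and 110.8 in the interior, a ratio of 1.57 (95% interval 1.53 to 1.62). The second had 63.9 and 35.3 per Mb, a ratio of 1.81 (1.73 to 1.90), and the mean of both ratios was 1.69 ± 0.17 (SD, n = 2). The Tdg shRNA library had the highest ratio, 3.18 (2.72 to 3.72), from 7.03 sites per Mb in the ends and 2.21 in the interior. The control shRNA library had 5.82 and 3.61 per Mb, a ratio of 1.61 (1.38 to 1.88). Intervals of ratios are exact conditional binomial ones. They hold counting error only and treat sites as independent, which neighbours on the same reads are not. No correction was made for CpG content, gaps in the build or coverage, whose part in these densities was not tested.

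The excess was greatest at the very start in 3 of the 4 libraries. In bins of 0.5 Mb, the first bin had the highest density of all 24 bins up to 15 Mb in both wild-type libraries, with 224.6 sites per Mb in the first and 103.7 in the second. The interior bins ranged from 76.0 to 158.7 per Mb in the first and from 22.3 to 53.5 in the second library. With Tdg shRNA the first bin had 13.8 sites per Mb, above all its interior bins, which ranged from 0.947 to 4.11. With control shRNA it had 5.18, within the range of the interior bins of 2.00 to 5.58. The last bin of the ends, 4.5 to 5 Mb of the chromosome, also lay above all interior bins in each of the 4 libraries. It had 181.6 and 60.4 sites per Mb in the wild-type libraries and 5.68 with Tdg shRNA. With control shRNA it had 7.58 and was the highest of all 24 bins. The plot of density by distance shows the step at the start in 3 of the 4 libraries.

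**Figure D1:**
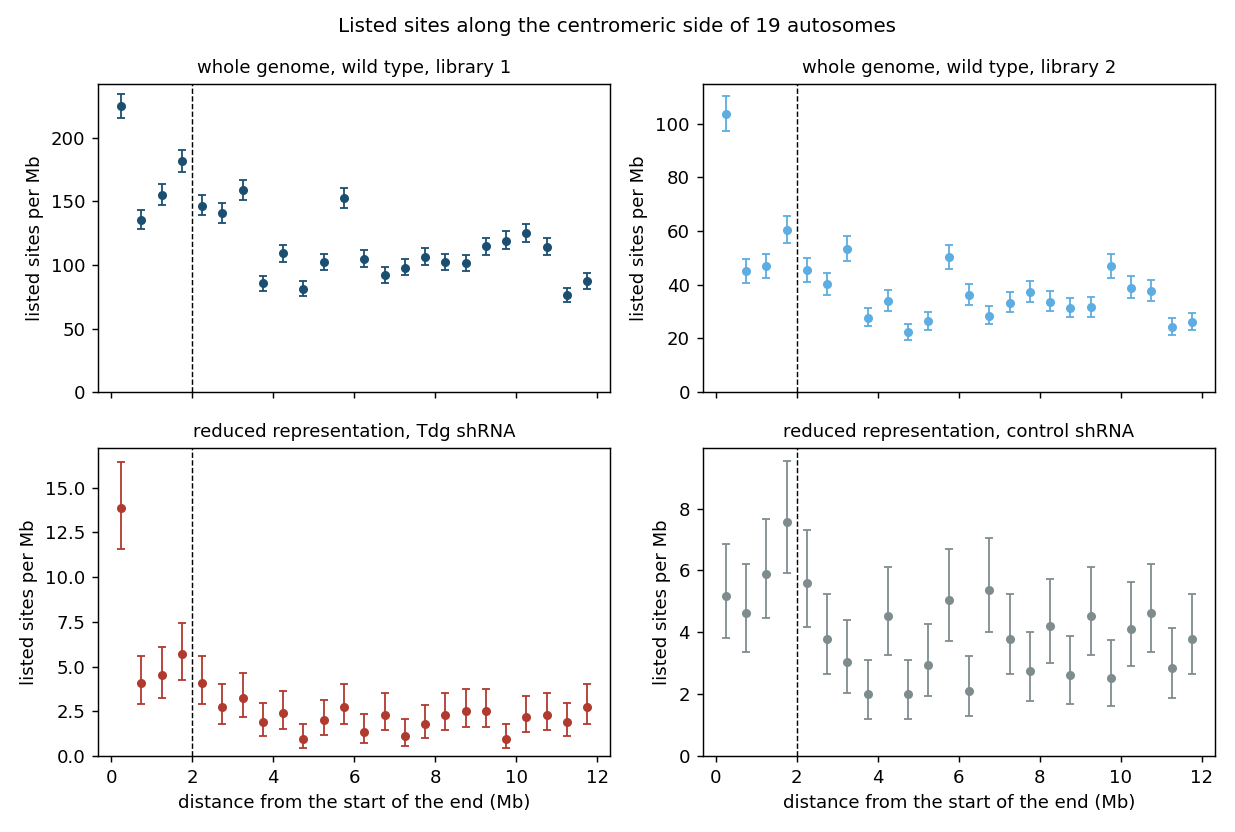
Listed sites per Mb (y axis) in bins of 0.5 Mb against the distance from the start of the centromeric end (x axis, Mb), summed over 19 autosomes, with 1 panel per library. Points are densities, bars are exact Poisson 95% intervals, and the dashed line marks the inner border of the ends. The first bin stands at 224.6 and 103.7 sites per Mb in the wild-type libraries and at 13.8 with Tdg shRNA, above all later bins, but at 5.18 with control shRNA, where it is not the highest.

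The chromosomes differed widely. Of 19 autosomes, 13 were denser at the end than in the interior in both wild-type libraries, 2 were less dense in both, and 4 went opposite ways. Chromosome 7 had the highest ratio in the first library, 3.70 (3.30 to 4.14), with 267.5 sites per Mb at its end and 72.3 in its interior, and its ratio in the second was 4.14 (3.48 to 4.91). Chromosome 11 had the highest ratio in the second, 4.60 (3.96 to 5.34), and 2.96 (2.71 to 3.24) in the first. Both of these ends were dense with either shRNA as well: chromosome 7 had a Tdg shRNA ratio of 4.47 and a control shRNA ratio of 3.88, and chromosome 11 had 11.2 and 4.03. Chromosomes 5 and 12 had ratios of 3.05 and 2.57 in the first wild-type library.

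The 2 chromosomes with sparse ends in both wild-type libraries were 10 and 15. Chromosome 15 had ratios of 0.676 (0.558 to 0.813) in the first and 0.415 (0.280 to 0.595) in the second library. Chromosome 10 had 0.618 (0.519 to 0.732) and 0.716 (0.525 to 0.960). Chromosomes 1, 3, 14 and 17 changed direction between the libraries. On chromosome 17 the ratio was 0.876 (0.771 to 0.994) in the first and 1.76 (1.47 to 2.09) in the second library, with intervals on opposite sides of 1. In the shRNA libraries, 17 of 19 ends were denser than their interior with Tdg shRNA and 13 with control shRNA, where single chromosomes held as few as 2 sites. The interval lay above 1 for only 9 ends with Tdg shRNA and 5 with control shRNA, and below 1 for 0 with either. The plot of ratios by chromosome shows that all libraries had wide ranges, from 0.571 to 11.2 with Tdg shRNA and from 0.444 to 4.03 with control shRNA.

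**Figure D2:**
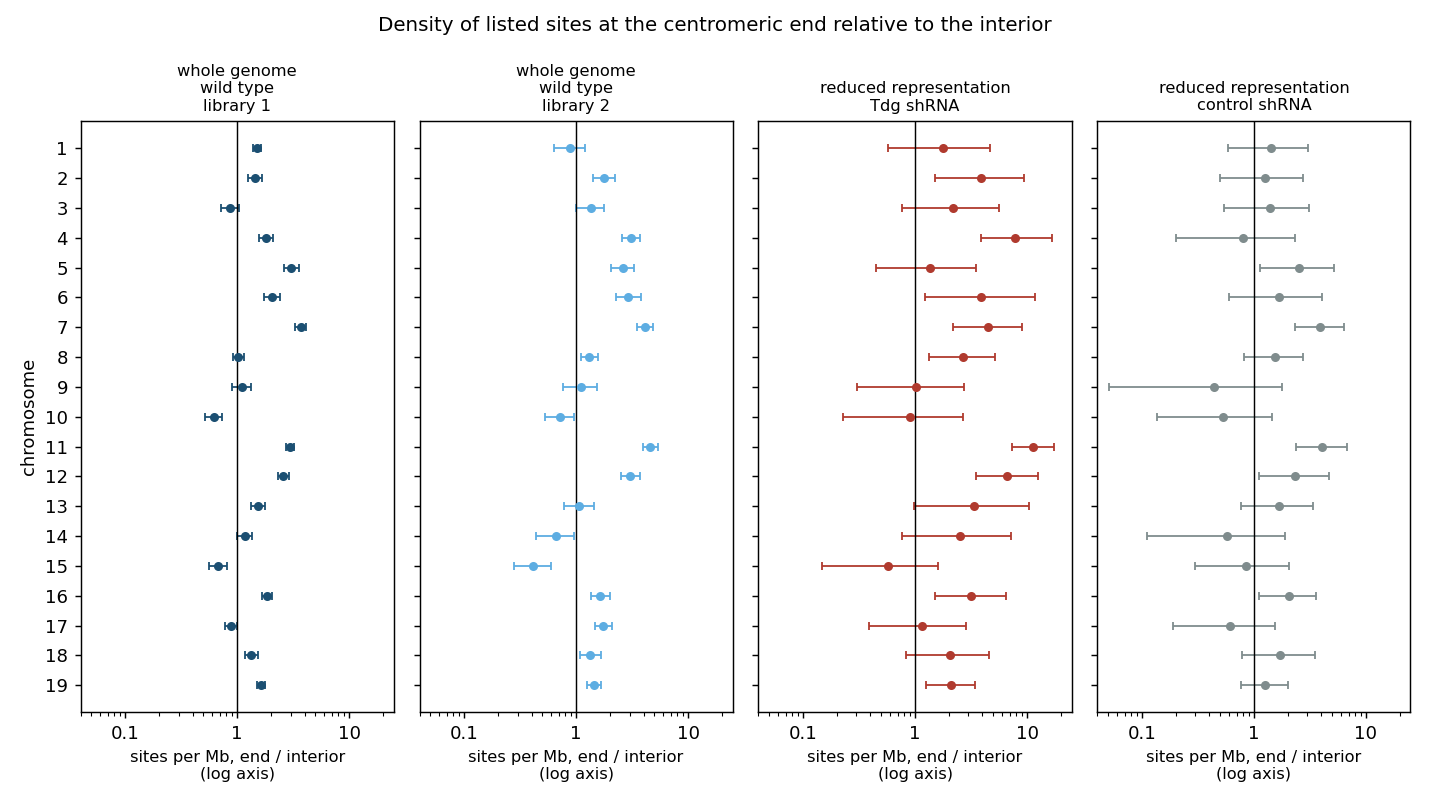
Ratio of listed sites per Mb in the centromeric end to that in the interior (x axis, log scale) for each autosome (y axis), with 1 panel per library. Points are ratios and bars exact conditional binomial 95% intervals, and the vertical line marks equal density. Chromosomes 7 and 11 lie to the right in every panel, and chromosomes 10 and 15 lie to the left of the line in every panel.

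Part of this density came from the first 100 kb of the ends, a part singled out after its values were seen. It held 666 sites of the first wild-type library, 358.1 per Mb, and 418 of the second, 224.7 per Mb. In the second library 163 of these were on chromosome 11, 83 on chromosome 17, 81 on chromosome 4, 39 on chromosome 3 and 22 on chromosome 6, while chromosomes 1, 7, 8, 15, 16 and 19 had 0. In the first library chromosome 1 had 43. Without the first 100 kb the ends still had 1.49 times (1.44 to 1.53) the density of the interior in the first library and 1.58 times (1.5 to 1.66) in the second.

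Read depth of the second wild-type library was higher at the start of the ends. The median number of recovered reads per site was 14 (quartiles 11 and 22) in the ends and 13 (11 and 19) in the interior. It was 26 (13 and 68) in the first 100 kb, and in the rest of the ends 14 (11 and 20). Reads cannot be recovered where p-values are at or below 1e-07. Such sites made up 53.1% (95% exact binomial interval 48.2% to 58.0%) of the first 100 kb, 18.8% (17.1% to 20.6%) of the rest of the ends and 15.9% (15.0% to 16.8%) of the interior, so the medians leave out the strongest sites, most of all at the start. At least 50 reads were recovered for 33.0% of recovered sites in the first 100 kb, 4.72% in the rest of the ends and 3.42% in the interior. By chromosome, the median depth of the ends ranged from 12 to 18 reads. It was above that of the interior on 11 chromosomes, below it on 3 and equal on 5. How far depth accounts for the number of listed sites was not tested.

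The wild-type libraries shared more of their sites in the ends. In the ends, 607 of 1251 plus-strand sites from the second library, or 48.5% (45.7% to 51.3%), also stood in the first, at an identical position. In the interior it was 1168 of 3345, or 34.9% (33.3% to 36.6%), a difference of 13.6 points (Newcombe 95% interval 10.4 to 16.8). The first library was itself 1.57 times as dense in the ends as in the interior. How far density accounts for the sharing was not tested. Over all of chromosomes 1 to 19 the share was 34.3%. The first 100 kb had 80.2% (74.2% to 85.3%) and the rest of the ends 42.1% (39.0% to 45.1%). Leaving out 10 kb windows with at least 20 sites in any library from both regions lowered the difference to 3.78 points (0.34 to 7.29), and leaving out the first 100 kb lowered it to 7.14 points (3.76 to 10.6).

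Sharing rose with the strength of the call. The share in the ends was above that of the interior in each of 6 classes of p-value. The interval of the difference included 0 in 2 of them. These classes keep the windows with at least 20 sites, and their intervals treat neighbouring sites as independent. Among sites with p-values at or below 1e-12, 85.7% (80.5% to 89.96%) in the ends and 69.0% (64.0% to 73.6%) in the interior were shared, a difference of 16.7 points (9.98 to 23.0). From 0.001 to 0.005 the shares were 37.2% and 32.9%, a difference of 4.30 points (-2.68 to 11.5) that includes 0. From 0.005 to 0.01 they were 28.3% and 21.6%, a difference of 6.66 points (1.62 to 12.03). The strongest class made up 18.5% of the plus-strand sites of the ends and 11.3% of those of the interior. The plot of sharing by p-value shows both regions falling together towards weak calls.

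**Figure D3:**
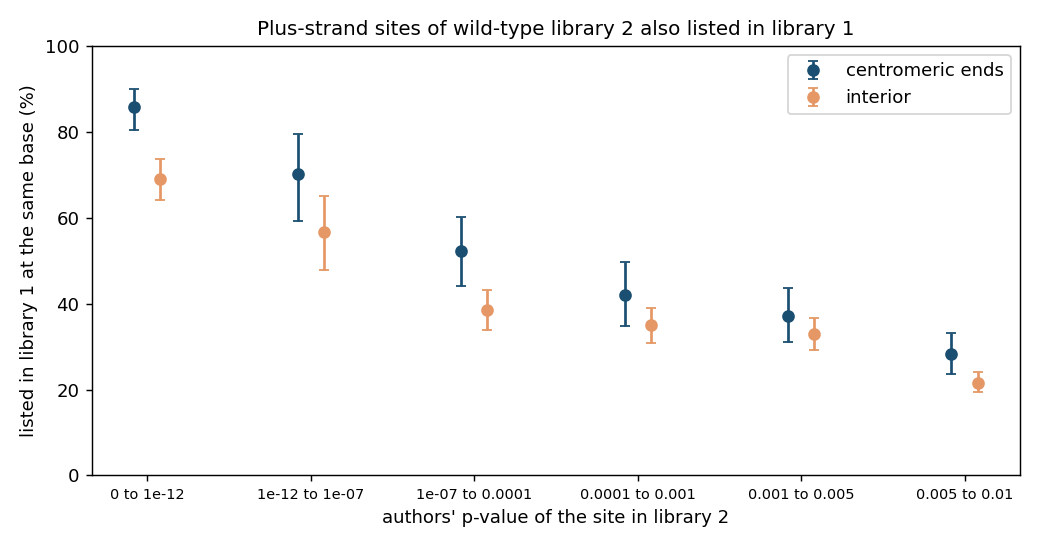
Share of plus-strand sites of the second wild-type library that the first also listed (y axis, %) by class of the authors' p-value in the second library (x axis), with the centromeric ends left of the interior in each class. Points are shares and bars exact binomial 95% intervals. Shares in the ends run from 85.7% in the strongest class to 28.3% in the weakest, and those in the interior from 69.0% to 21.6%.

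Chromosomes again differed in sharing. The share was higher at the end than in the interior on 11 chromosomes, lower on 7 and equal on chromosome 15. It reached 83.9% at the end of chromosome 3 (26 of 31 sites) and 83.0% at that of chromosome 4 (93 of 112), against 26.2% and 35.4% in their interiors. The lowest share at an end was 23.3%, on chromosome 10. The end of chromosome 7, among the densest, had 31.4%, against 36.1% in its interior.

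Among the regions compared here, both strands of a CpG were rarely listed together except at the start of the ends. In the first 100 kb, 71 of 212 plus-strand sites of the second wild-type library, or 33.5% (27.2% to 40.3%), had their minus-strand partner listed. In the rest of the ends it was 13 of 1039, or 1.25% (0.668% to 2.13%), and in the interior 29 of 3345, or 0.867% (0.581% to 1.24%). Over all of chromosomes 1 to 19 it was 722 of 57348, or 1.26%, about that of the rest of the ends. Most of these 722 sites lay outside the ends. Depth moved with this share, as given above, and its part was not tested. The share of sites of the first library that the second listed on either strand was 35.4% in the first 100 kb, 9.64% in the rest of the ends, 7.38% in the interior and 8.05% over all of chromosomes 1 to 19.

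Sites lay closer together in the ends, which follows in part from their density. The median gap to the next site was 351 bases in the ends and 1177 in the interior in the first wild-type library, and 1298 and 6386 in the second, with both strands of a CpG joined. A gap of at most 100 bases followed 22.6% (17.5% to 28.3%) of Tdg shRNA sites in the ends and 11.97% in the interior, and 14.9% (10.3% to 20.5%) and 14.4% of control shRNA sites.

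Median levels were close in the ends and the interior. In the first wild-type library the median level was 11.9% (order-statistic 95% interval 11.4% to 12.2%) in the ends and 11.6% (11.4% to 11.9%) in the interior, a difference of 0.21 points (-0.25 to 0.58). This interval excluded 0 without chromosome 11, at 0.52 points (0.144 to 0.941). The same held without chromosomes 4 and 11, at 0.52 points (0.144 to 0.977). It also held without sites at 0, at 0.62 points (0.293 to 1.17). The share of sites listed at 0 was 19.2% (18.2% to 20.1%) in the ends and 18.3% (17.8% to 18.8%) in the interior. The shares at 90% or more were 2.92% (2.53% to 3.35%) and 2.38% (2.18% to 2.59%). At CpGs that both wild-type libraries listed, the median level was higher in the ends, 17.1% (15.2% to 19.3%), than in the interior, 13.3% (12.6% to 14.1%). These shared CpGs of the first 100 kb had a median of 23.8% (16.3% to 31.1%). In the second library the median share of converted reads at recovered sites was 27.3% in both the ends and the interior. Recovery leaves out p-values at or below 1e-07, which were 24.7% of sites in the ends and 15.9% in the interior. All listed sites had also passed the authors' call at few reads, with medians of 14 and 13, so this median cannot tell levels apart.

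In the shRNA libraries the median level with Tdg shRNA was 13.8% (12.5% to 15.4%) in the ends and 12.5% (12.3% to 13.8%) in the interior. With control shRNA it was 11.2% (9.89% to 13.7%) in the ends and 10.2% (9.12% to 11.1%) in the interior. Both differences, 1.33 points (-0.55 to 2.91) and 0.98 points (-0.58 to 3.68), have intervals that include 0. The interval of the Tdg shRNA difference excluded 0 without chromosome 12, at 2.21 points (0.615 to 3.54), and with the border at 4 Mb, at 4.38 points (1.05 to 14.97). That of the control shRNA difference excluded 0 with the first 40 kb of chromosome 9 kept, at 1.49 points (0.206 to 4.18). The upper part of the distribution differed more: the upper quartile with Tdg shRNA was 55.9% in the ends and 19.1% in the interior, and with control shRNA 24.5% and 16.9%. Without the first 100 kb, the Tdg shRNA sites of the ends had an upper quartile of 35.9% and the control shRNA sites of 22.4%.

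Setting Tdg shRNA against control shRNA asks how the lists differ with an shRNA aimed at Tdg, whose depletion was not measured here, and in this the ends did not follow the interior. The ends held 267 Tdg shRNA sites against 221 control shRNA sites, a ratio of 1.21 (1.01 to 1.45). The interior held 420 and 686, a ratio of 0.612 (0.541 to 0.692), and the remainder of chromosomes 1 to 19 beyond 15 Mb had a ratio of 0.640 (0.621 to 0.659). The ratio in the ends was thus 1.97 times (1.58 to 2.46) that in the interior. With 1 library for each shRNA, neither count has a replicate check, and the depth of both libraries is unknown.

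The excess of Tdg shRNA sites lay in the first 100 kb, with 84 against 11 sites, a ratio of 7.64 (4.06 to 15.9). The rest of the ends held 183 against 210, for a ratio of 0.871 (0.711 to 1.07). This remainder was still 1.42 times (1.12 to 1.81) the ratio of the interior. From 0.1 to 0.5 Mb into the ends the ratio was 1.24 (0.789 to 1.95), and in each following step of 0.5 Mb it was 0.886, 0.768 and 0.750. In the interior it was 0.761 (0.605 to 0.956) up to 7.5 Mb of the chromosome and 0.536 (0.410 to 0.698) from 7.5 to 10 Mb. The plot of the ratio by distance shows the first bin apart from all others.

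**Figure D4:**
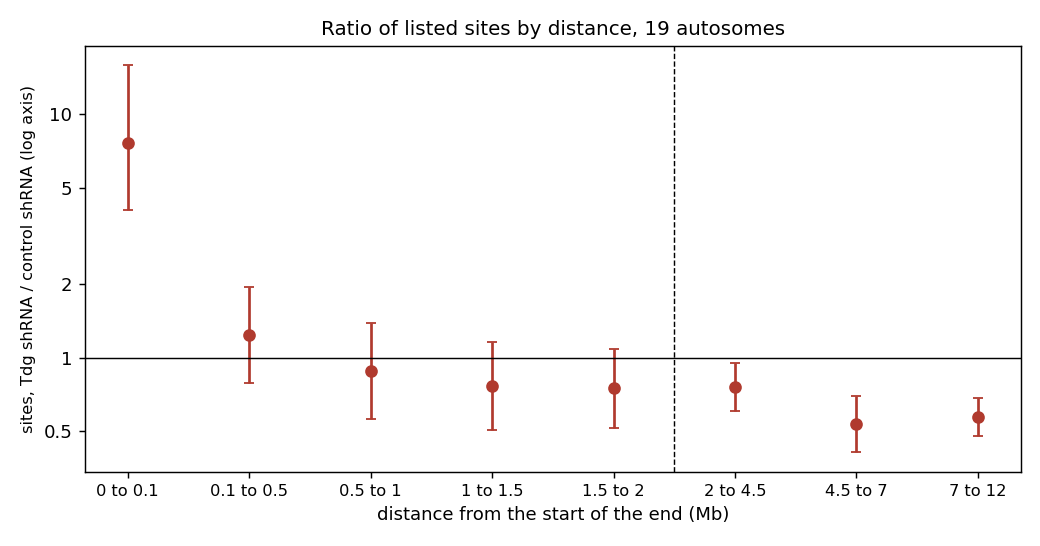
Ratio of sites listed with Tdg shRNA to those with control shRNA (y axis, log scale) by distance from the start of the centromeric end (x axis, Mb, bins of unequal width), summed over 19 autosomes. Points are ratios and bars exact conditional binomial 95% intervals; the dashed line marks the inner border of the ends and the solid line equal counts. The first bin stands at 7.64 and the 7 others lie between 0.536 and 1.24.

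Chromosomes 11 and 4 supplied most of the early Tdg shRNA sites. In the first 100 kb chromosome 11 had 54 Tdg shRNA sites against 6 control shRNA sites, and chromosome 4 had 17 and 0. The other 17 chromosomes together had 13 and 5, a ratio of 2.60 (0.870 to 9.31). Over the whole end, the counts were 74 and 29 on chromosome 11, 22 and 4 on chromosome 4, and 25 and 13 on chromosome 12. Chromosome 12 had 0 sites of either shRNA library in its first 100 kb. The largest deficit was on chromosome 7, with 17 Tdg shRNA sites against 31 control shRNA sites. In all, 7 ends held more sites with Tdg shRNA, 9 held fewer and 3 as many, while in the interior 1 chromosome held more, 17 fewer and 1 as many. Without chromosomes 4 and 11 the ratio of the ends was 0.910 (0.735 to 1.12), and without chromosome 11 alone 1.01 (0.819 to 1.23). Leaving out windows with at least 20 sites gave 0.919 (0.752 to 1.12). An excess over control shRNA in the ends thus rested on few windows.

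**Figure D5:**
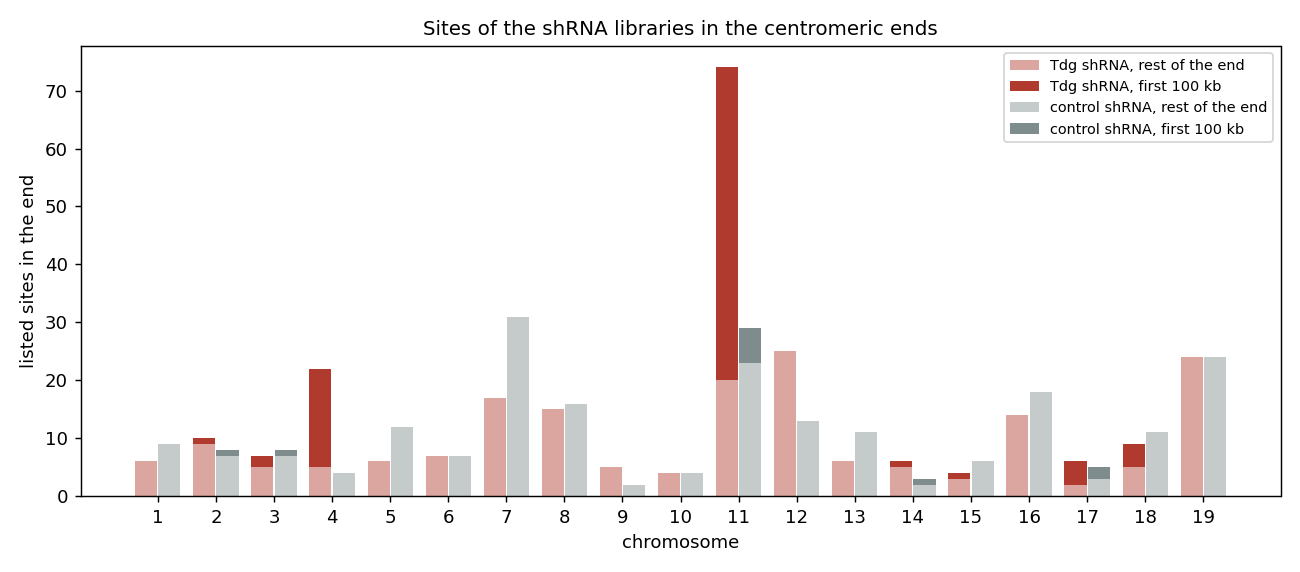
Number of sites listed in the centromeric end (y axis) of each autosome (x axis), with Tdg shRNA left of control shRNA. The dark part of a bar is the first 100 kb and the light part the rest of the end. Chromosome 11 reaches 74 sites with Tdg shRNA against 29 with control shRNA and chromosome 4 reaches 22 against 4, mostly through the dark part.

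The ratio of Tdg shRNA to control shRNA sites in the ends differed with the level. Under 5%, the ends held 13 Tdg shRNA sites against 30 control shRNA sites, a ratio of 0.433 (0.207 to 0.856), whereas the interior had 8 and 98, a ratio of 0.0816 (0.0343 to 0.167). From 10% to 20% the ends had 106 and 61, a ratio of 1.74 (1.26 to 2.42), and the interior 189 and 219, a ratio of 0.863 (0.707 to 1.05). At 20% or more the ends had 99 and 62, a ratio of 1.60 (1.15 to 2.23), and the interior 103 and 130, a ratio of 0.792 (0.606 to 1.03). Without the first 100 kb, the ends had 52 and 55 at 20% or more, a ratio of 0.945 (0.635 to 1.41), which turns the direction, and 81 and 59 from 10% to 20%, a ratio of 1.37 (0.970 to 1.95). In the first 100 kb the Tdg shRNA sites had a median level of 25.9% (15.4% to 59.8%), and 21 of the 84 were at 90% or more. The 11 control shRNA sites there had a median of 25.1% (7.66% to 100%), and 3 were at 90% or more.

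The windows of 10 kb that gained most lay in these same stretches. Of 242 windows of the ends with a site in either shRNA library, 99 or 40.9% held more with Tdg shRNA, against 31.0% of all 12582 such windows of chromosomes 1 to 19. Fewer sites with Tdg shRNA were found in 41.7% of the windows of the ends, against 55.6% of all. In 6 windows of the ends, 2.48%, Tdg shRNA had at least 5 more sites than control shRNA, against 0.127% of all. The largest was on chromosome 11 from 3040001 to 3050000, with 11 sites with Tdg shRNA (exact Poisson interval 5.49 to 19.7) and 0 with control shRNA, a count that allows up to 3.69. Its Tdg shRNA levels ranged from 9.12% to 100% with a median of 13.8%. The first wild-type library had 22 sites there at a median of only 1.24%, and the second had 20, with a median of 88 reads at 13 recovered sites.

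On chromosome 4, the window from 3000001 to 3010000 held 10 Tdg shRNA sites against 0 for control shRNA, and here levels were high. Its Tdg shRNA sites had a median of 74.1%, and the 21 sites of the first wild-type library had 36.1%. The first window of chromosome 11, from 3000001 to 3010000, also had 10 and 0, with a Tdg shRNA median of 22.1%. The second wild-type library listed 57 sites in it and the first only 5. On chromosome 11 the window from 3050001 to 3060000 had 13 and 5 sites and that from 3090001 to 3100000 had 8 and 0. The 5 largest losses were of 3 sites each, on chromosomes 6, 7, 13 and 18, and with 3 or 4 control shRNA sites apiece the exact Poisson intervals of both counts overlap.

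Sites of the Tdg shRNA library at the start of the ends were mostly listed in wild-type cells too. In the first 100 kb, 56 of 84, or 66.7% (55.5% to 76.6%), were listed at the same base in at least 1 wild-type library, in the rest of the ends 25 of 183, or 13.7% (9.04% to 19.5%), and in the interior 37 of 420, or 8.81% (6.28% to 11.9%). With control shRNA the shares were 4 of 11, 14 of 210 or 6.67% (3.69% to 10.9%), and 25 of 686 or 3.64% (2.37% to 5.33%). Over all of chromosomes 1 to 19 they were 12.6% for Tdg shRNA and 4.90% for control shRNA, so that the share in the rest of the ends lay near this background. Since the assays read different fragments, these shares do not measure how often a call recurs.

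The shRNA libraries shared 55 sites in the ends, 20.6% of the Tdg shRNA and 24.9% of the control shRNA sites. In the interior they shared 96, which were 22.9% and 14.0%. In the first 100 kb, 8 of the 84 Tdg shRNA sites and of the 11 control shRNA sites were shared. At the 55 sites the level was lower with Tdg shRNA at 31, higher at 14 and equal at 10. Tdg minus control shRNA gave a median of -1.65 points (-3.98 to 0), against 0 points (-1.34 to 0) at the 96 sites of the interior. Without tied sites the median was -3.28 points (-5.04 to -0.564) at 45 sites of the ends and -2.34 points (-5.60 to -0.0706) at 69 of the interior. Both of these intervals exclude 0, but leaving out ties removed the sites at which the levels did not differ. The subtracted background was also larger for the Tdg shRNA library (3.3%) than for the control library (2.9%). Equal raw fractions below 100% thus give a lower level in the Tdg shRNA library. Sites of 1 library per shRNA are not replicates, so these intervals cannot decide whether levels differ between the shRNAs. At the sites below 90% in both libraries, none of them tied, the intervals included 0, with -3.25 points (-7.09 to 1.68) at 32 sites of the ends and -2.11 points (-5.74 to 2.52) at 54 of the interior. Of the shared sites of the ends, 18 were at 90% or more in both libraries and 10 at 100% in both. The first of these in chromosome order, among sites tied at 100%, were bases 4188884 and 4377859 of chromosome 2, 3342741 of chromosome 5, and 3656311 and 4981742 of chromosome 7. Of the 18, 4 were listed in a wild-type library, among them base 4188884 of chromosome 2, with a p-value of 0.000761 in the second.

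The windows with the most CpGs listed in both wild-type libraries were of several kinds. The window on chromosome 12 from 3350001 to 3360000 had 47 shared CpGs, and all of them lay within 444 bases (3357178 to 3357621), all with CG, TG or CA around them, as in the CG repeat printed above. Their median level in the first library was 60.6%, and 46 of the 47 sites of the second library were on the plus strand. This window had 0 sites in either shRNA library. Chromosome 4 had 3 windows among the first 10, starting at bases 3010001, 3100001 and 3000001, with 38, 18 and 15 shared CpGs. The first of these had 7 Tdg shRNA sites, with a median level of 52.5%, against 0 control shRNA sites. The others were a window on chromosome 18 with 29 shared CpGs and 0 sites of either shRNA library, and 2 windows each of chromosomes 11 and 17 and 1 of chromosome 16 with 13 to 16.

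Recurrence of the same pattern of CpGs elsewhere was measured on the first wild-type library, as runs of 3 listed CpGs within 500 bases whose contexts and distances occur more than once in the list. In the ends 378 of 2164 runs recurred, 17.5% (15.9% to 19.1%), in the interior 1159 of 5395, 21.5% (20.4% to 22.6%), and over all of chromosomes 1 to 19 it was 15.9% (15.6% to 16.1%). Of runs in the first 100 kb it was 16 of 293, 5.46% (3.15% to 8.72%). The share was 39.9% at the end of chromosome 1, 37.2% at that of chromosome 13 and 36.2% at that of chromosome 12, but 7.19% at that of chromosome 4 and 5.97% at that of chromosome 11. Chromosome 18, whose contexts were left out of the stretches and of the comparison of contexts, was kept here. At its end 15 of 114 runs recurred. Runs on the opposite strand and runs in which a CpG was not listed are missed by this measure.

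The 5-base contexts of the ends resembled those of the interior. Over 6337 sites of the ends and 20043 of the interior outside chromosome 18, the share of a context in the ends was 0.768 to 1.35 times that in the interior for all 64 contexts. The highest ratio, 1.35 for taCGc with 41 sites in the ends, had an interval of 0.913 to 1.97. Intervals excluded 1 for 3 contexts: acCGt with 105 sites in the ends had a ratio of 1.33 (1.05 to 1.68), gaCGg with 145 sites 1.23 (1.01 to 1.49), and tcCGc with 76 sites 0.768 (0.590 to 0.990). With 64 contexts compared and no adjustment, these intervals are descriptive. The most frequent context of the ends was ggCGg, with 3.60% of sites, against 3.68% in the interior. The context tgCGt had 3.42% in the ends and 3.88% in the interior, where it was above ggCGg.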

How the data were processed

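The submitters' processing notes name build mm9, Bismark 0.10.1 and CASAVA 1.8. How the authors called and filtered sites, and library depths, is not given in the sources used here. The deposited values of the first wild-type library and of both shRNA libraries are percent of converted reads, which matched fractions with a background of 3.0%, 3.3% (Tdg shRNA) and 2.9% (control shRNA) subtracted and rescaled. The deposited value of the second wild-type library is a p-value. Upper binomial tails with a background of 3.8% (up to 20000 reads, relative tolerance 1e-08) gave total and converted reads for 101128 sites, 85.3%. Positions are printed 1-based.

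Sites were counted per region and compared by exact base, with Python 3.11.15, NumPy 2.4.6, pandas 2.3.3, SciPy 1.17.1 and Matplotlib 3.10.9. Read recovery and the intervals of count ratios and of ratios of ratios were tested on simulated data. The simulated counts were independent, so clustering of sites was not covered, and simulated depths stayed below those of the deepest sites. The other intervals were not simulated. No p-value between groups was computed, since each shRNA group has 1 library and the wild-type libraries differ in unit. Named windows were the 10 with most CpGs in both wild-type libraries and the 5 with the largest gain and loss with Tdg shRNA. Regions, windows and lists were chosen with earlier results of these data known. PCR copies were not told apart. Genes are not named because no mm9 annotation was used here. Contexts of chromosome 18 were left out of the stretches and of the comparison of contexts, but were kept in the recurring runs.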

Additional observations from a re-analysis of the deposited data

Results flagged for a closer look

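The ratio of Tdg shRNA to control shRNA sites differed between the centromeric ends and the interior, by 1.97 times (1.58 to 2.46), which drew attention because the interval of the difference itself excludes 1. By chromosome, the same held for 3 of 19, chromosome 4 with 9.82 times (2.52 to 45.5), chromosome 11 with 2.78 times (1.40 to 5.54) and chromosome 12 with 2.83 times (1.07 to 7.60), and for 0 in the other direction. These 19 intervals were not adjusted for their number. Chromosome 12 differed from the other two in where the sites lay, since it had no shRNA site in its first 100 kb. The first 40 kb of chromosome 9, which is not part of the ends, held 352 Tdg shRNA sites against 51 control shRNA sites, a ratio of 6.90 (5.13 to 9.45), above the control library.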

How the results depend on the processing

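No paired analysis was possible because each shRNA group has 1 library and the labels name no pairs of libraries across groups. The density ratios, the sharing difference and the ratio of the ends over the interior kept their direction and an interval on the same side under every alternative run. The ratio of Tdg shRNA to control shRNA sites in the ends did not. It was 1.04 (0.847 to 1.29) when each 1 kb bin with a site counted once, since clustered sites then count less. It was below 1 without windows of at least 20 sites (0.919), without the first 100 kb of each end (0.871) and without chromosomes 4 and 11 (0.910), the last 2 chosen after seeing the data; the cause was not tested. Leaving out 1 chromosome at a time gave 1.01 (without chromosome 11) to 1.32 (without 7), with an interval that included 1 in 5 of 19 cases. With the first 40 kb of chromosome 9 kept, it was 2.28, the ratio over the interior 3.72, and the density ratio with Tdg shRNA 7.37. With the border at 4 Mb the ratio over the interior was 2.99, the one in the ends 1.83 and the sharing difference 21.4 points.

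The ranges without 1 chromosome were 1.48 to 1.63 and 1.65 to 1.90 for the density ratio of the first and second wild-type library, 2.50 to 3.42 with Tdg shRNA, 1.47 to 1.68 with control shRNA, 1.69 to 2.12 for the ratio over the interior and 10.2 to 15.7 points for sharing. Those of the level difference were -0.10 to 0.52 points in the first wild-type library, 1.00 to 2.21 with Tdg shRNA and 0 to 1.61 with control shRNA, and the depth ratio stayed at 1.08. The mean density ratio of the wild-type libraries was 1.81 without replicate 1 and 1.57 without replicate 2. Level differences moved out of their interval in 3 cases: 4.38 points with Tdg shRNA for a border at 4 Mb, and in the first wild-type library -0.41 points with the start of chromosome 9 kept and 0.62 points without sites at 0. Depth is unknown for 3 of the 4 libraries, so that a site missing from their lists may be unread.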
